A study of Mus musculus with 6 samples.

Results

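Malat1, Neat1, Rn7sk, Rmrp, Rpph1, Terc and Gas5 are 7 mouse noncoding RNA genes that are read mainly when total RNA is sequenced after removal of ribosomal RNA, as was done here. They were found by their Ensembl identifiers, which gave 8 rows among the 54532 gene rows of the table, since Rmrp has 2 rows. Of these 8 rows, 5 averaged 1 or more across all 6 libraries and could be tested, namely Malat1, Neat1, Rn7sk, Terc and Gas5. The Rmrp and Rpph1 rows were listed at or close to 0.

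The libraries came from whole CD4 T cells of spleen and lymph nodes of C57BL/6 mice, 3 labelled KO (KO 1, KO 4 and KO 5, genotype iCD4-PRMT5 delta/delta) and 3 labelled WT (WT 1, WT 2 and WT 4, genotype iCD4-PRMT5fl/fl). Prmt5 encodes a protein arginine methyltransferase, and the labels do not spell out the prefix iCD4, which both genotypes carry, nor whether animals were pooled. The treatment label of all 6 libraries names anti-CD3/CD28 for 48 h while their titles carry the word rest, so the activation state is unclear. The label and the word are the same in both groups, which does not show that the activation state was equal. By a code in their descriptions the libraries form series 24 (KO 4, KO 5 and WT 4) and series 22 (KO 1, WT 1 and WT 2). Values are robust FPM, fragments assigned to a gene and scaled by size factors, with no depth given, so the precision from counting is unknown.

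Malat1 and Neat1 are long RNAs that stay in the nucleus, Malat1 in the speckles that store splicing factors and Neat1 as the scaffold of paraspeckles. Rn7sk is the 7SK RNA, made by RNA polymerase III, which holds the elongation factor P-TEFb in an inactive complex. Rmrp and Rpph1 are the RNA subunits of RNase MRP, which cleaves precursor ribosomal RNA, and of RNase P, which trims the leader of precursor tRNA. Terc is the RNA template of telomerase, and Gas5 is a spliced RNA whose introns encode small nucleolar RNAs (snoRNAs) and which is degraded by nonsense-mediated decay in growing cells.

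The stretches that mark each RNA are printed 5′ to 3′ as DNA letters from the GENCODE M21 transcripts on GRCm38. For Rn7sk the first 100 bases are given (chr9:78175534-78175633, minus strand), with the 3 copies of GATC in capitals. The copies at bases 42 to 45 and 64 to 67 are those of the hairpin that the P-TEFb inhibitor HEXIM binds. The copy at bases 13 to 16 lies before it. At least 3 copies of GATC in the first 100 bases occur in 0.323% of 139316 annotated transcripts.
Rn7sk: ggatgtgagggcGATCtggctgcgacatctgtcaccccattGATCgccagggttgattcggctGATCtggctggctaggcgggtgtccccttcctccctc
For Terc the first 100 bases are given (chr3:96414760-96414859, minus strand), with the template CTAACCCT at bases 29 to 36 in capitals, which is copied into telomeric repeats. These 8 letters lie in the first 100 bases of 0.111% of the transcripts.
Terc: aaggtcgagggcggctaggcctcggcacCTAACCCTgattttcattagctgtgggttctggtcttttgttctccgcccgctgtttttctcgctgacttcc
For Malat1, bases 6591 to 6692 (chr19:5795981-5796082, minus strand) and for Neat1 the last 60 bases (chr19:5824708-5824767, minus strand) are given. Their U-rich motifs and A-rich tract, in capitals, are known to fold into the helix that protects the unpolyadenylated end of each RNA. A run of 6 or more A, then GC, then 4 or more A, as in Malat1, occurs in 0.205% of the transcripts, and 5 A, then GC, then 4 A at the last base, as in Neat1, in 0.0065%.
Malat1: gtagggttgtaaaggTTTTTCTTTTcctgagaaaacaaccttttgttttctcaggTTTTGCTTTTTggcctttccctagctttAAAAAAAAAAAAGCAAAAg
Neat1: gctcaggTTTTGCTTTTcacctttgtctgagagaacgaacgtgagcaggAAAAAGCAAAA
For Gas5 the first 60 bases of a spliced transcript (chromosome 1, plus strand) are given, with the leading run of C and T in capitals, the start by which its class of transcripts is recognised. A C followed by at least 4 letters C or T opens 2.03% of the transcripts. All motifs were read on the transcript strand only, and a match describes the letters and not binding.
Gas5: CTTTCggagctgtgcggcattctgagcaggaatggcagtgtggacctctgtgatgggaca

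Prmt5 was lower in each KO library (21.5 to 24.4 robust FPM) than in any WT library (34.9 to 43.9 robust FPM), in the direction of the labels. Its log2 difference of -0.78 had an unadjusted limma p of 0.00049 and was not called (limma adjusted p = 1). Of all tested genes, 2.88% likewise had KO and WT values that did not overlap. All 10 CD4 T cell markers examined were detected, Cd4 at 391.7 to 465.0 robust FPM in KO and 388.8 to 458.8 robust FPM in WT. B cell markers summed to 16.6 to 23.1 robust FPM in KO and 16.6 to 29.7 robust FPM in WT. Among them Cd79a was lowest, at 0.2 to 0.7 in all 6, and Cd22, of highest mean, had 5.3 to 9.2. Markers of CD8 T and NK cells summed to 86.7 to 108.4 robust FPM in KO and 78.8 to 102.2 robust FPM in WT. Those of myeloid cells reached 715.3 to 1594.3 robust FPM in KO and 287.8 to 1055.2 robust FPM in WT. Hbb-bs, Hbb-bt, Hba-a1 and Hba-a2 were listed at 0 in every library. WT 1 stood apart. A set of 5 predicted genes (Gm10800, Gm26870, Gm10801, Gm21738 and Gm11168) took 19.3% of its gene sum, against 0.320% to 3.75% in the other libraries, and 1965 olfactory and vomeronasal receptor genes, which T cells are not known to use, averaged 0.295 robust FPM per kb in WT 1 and 0.0141 to 0.0813 elsewhere. The member differences between genotypes and between series are therefore also given without WT 1, while the medians of the lists include it.

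Rn7sk and Malat1 dominated the group. The detected RNAs together took 4.13% ± 0.398 (SD, n = 6) of a library's gene sum, and Rn7sk alone took 2.53% ± 0.396 and Malat1 1.53% ± 0.103. Their summed share ran from 4.08% to 4.51% in KO libraries and from 3.38% to 4.36% in WT libraries, the lowest being WT 1. With the 5 predicted genes taken out of the sum, a choice made after the data had been seen, the summed share was 4.33% ± 0.172 and WT 1 stood at 4.19%, inside the range of 4.10% to 4.56% over the 6 libraries. Neat1 took 0.0400% ± 0.0091, Gas5 0.0262% ± 0.0037 and Terc 0.0027% ± 0.00063 of the gene sum.

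Per length the order was different. In robust FPM per kb of annotated exon, averaged over 6 libraries, Rn7sk reached 68649 ± 10474 (SD), Malat1 1964 ± 109, Gas5 62.8 ± 9.19, Terc 57.5 ± 12.9 and Neat1 17.2 ± 3.45. The ranges over libraries of neighbours in this order did not overlap, apart from Gas5 (53.6 to 78.1) and Terc (35.9 to 71.6). On these lengths Gas5 and Terc cannot be ordered beyond their spread. Gas5 averaged 236 robust FPM over 3760 bases and Terc 24.3 robust FPM over 423 bases. The length of Gas5 joins the exons of all its annotated transcripts. Its spliced transcript printed above has only 346 bases, so the place of Gas5 depends on the length used. Neat1, the longest with 20771 bases, averaged more fragments than Gas5 and Terc (357 robust FPM). It nevertheless had the lowest level per kb of annotated exon. That level spreads the fragments over the whole annotated length, and values per gene do not show whether they covered all of it.

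**Figure D1:**
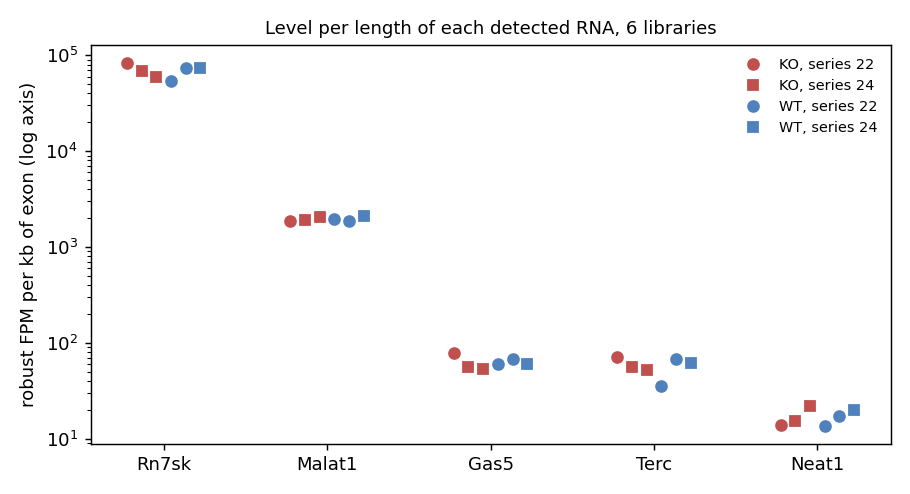
Level per length of the 5 detected RNAs (robust FPM per kb of exon, log axis), one point per library, with KO libraries in red left of WT libraries in blue, circles for series 22 and squares for series 24. Rn7sk lies between 53998 and 83480, Malat1 between 1862 and 2115, and the ranges of Gas5 and Terc overlap.

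In the comparison of KO with WT, which asks whether the amount of these RNAs differs with the Prmt5 genotype, 0 of the 5 tested members were called (limma with library series as a term, adjusted p below 0.05; each member had an adjusted p of 1). Over all 14944 genes tested the share called was 0.0%, and 37 genes, none of them a member, had an unadjusted p below 0.05. That is a smaller share than this threshold would give among genes with no difference. The absence of the members from so short a list therefore says little, and its cause was not tested. In each of the 5 members the KO and WT values overlapped; 2.88% of all tested genes had values that did not overlap. The 95% interval of the difference stayed inside a change of 2-fold for all 5 members, and inside 1.5-fold for Malat1, Neat1, Rn7sk and Gas5 but not for Terc. In bulk samples such as these, fewer cells of a type and less RNA per cell cannot be told apart.

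**Figure D2:**
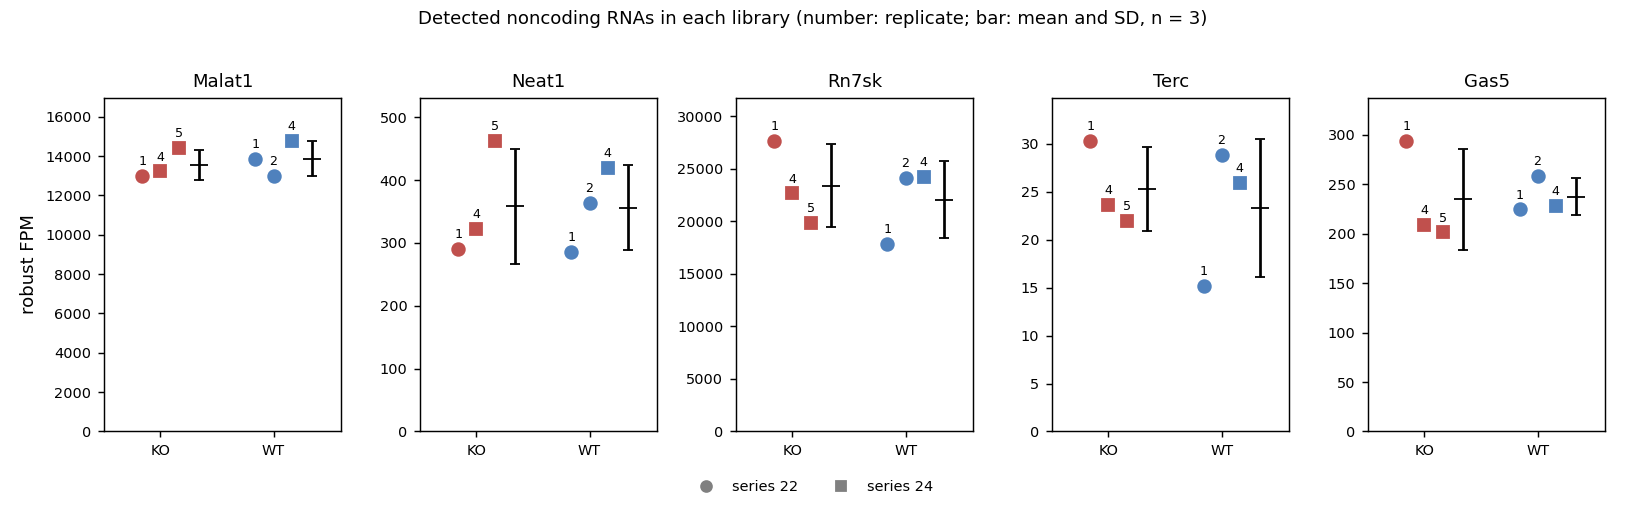
Robust FPM of the 5 detected RNAs in each KO library (red, left) and WT library (blue, right), with the replicate number beside each point, circles for series 22 and squares for series 24, and the mean and SD of 3 libraries as a black bar. KO and WT values overlap in every panel, and WT 1 is the lowest library for Neat1, Rn7sk and Terc.

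Malat1 (ENSMUSG00000092341, chr19:5795690-5802672, minus strand, GRCm38, a long intergenic RNA of 1 exon) had 13010.8, 13226.9 and 14429.6 robust FPM in KO 1, KO 4 and KO 5, and 13848.9, 13004.0 and 14766.4 robust FPM in WT 1, WT 2 and WT 4. The 6 values lay within 1.14 times of each other, and neither genotype nor WT 1 stood out. The means were 13556 ± 764 in KO and 13873 ± 881 in WT (SD, n = 3 each), and the log2 difference was -0.07 (SE 0.11, 95% interval -0.33 to 0.19), and -0.05 without WT 1. The SD of its log2 value over the 6 libraries was 0.079, and 5.01% of the tested genes had a smaller one. It ranked between 2 and 4 among all gene rows in every library.

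Neat1 (ENSMUSG00000092274, chr19:5824708-5845478, minus strand, GRCm38), which lies on the same chromosome and strand close to Malat1, varied more. It had 290.8, 321.9 and 462.2 robust FPM in KO 1, KO 4 and KO 5, and 286.0, 363.5 and 419.8 robust FPM in WT 1, WT 2 and WT 4. Both genotypes held a low library of series 22 and a high library of series 24. The means were 358 ± 91.3 in KO and 356 ± 67.2 in WT (SD, n = 3 each), with a log2 difference of -0.14 (SE 0.17, 95% interval -0.53 to 0.26), and -0.21 without WT 1.

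By library series, Neat1 averaged 401 ± 72.0 in series 24 and 313 ± 43.4 in series 22 (SD, n = 3 each). The values overlapped, since KO 4 of series 24 was below WT 2 of series 22, and the log2 difference of 0.39 (SE 0.17) had an unadjusted limma p of 0.0488 and an adjusted p of 0.561; it was 0.32 without WT 1. Markers of myeloid cells varied over the same libraries. The 11 markers of that list summed to 715.3, 743.2 and 1594.3 robust FPM in KO 1, KO 4 and KO 5, and to 287.8, 465.2 and 1055.2 robust FPM in WT 1, WT 2 and WT 4, with all 11 highest in KO 5 and 8 lowest in WT 1, the libraries where Neat1 was also highest and lowest. None of the 11 was at 0 in any library, and their part in the Neat1 values was not tested. The share of all tested genes highest in KO 5 or lowest in WT 1 was not counted.

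Rn7sk (ENSMUSG00000065037, chr9:78175303-78175633, minus strand, GRCm38) had the highest mean of all gene rows. It had 27631.8, 22652.5 and 19843.4 robust FPM in KO 1, KO 4 and KO 5, and 17873.2, 24097.5 and 24238.2 robust FPM in WT 1, WT 2 and WT 4. KO 1 was the highest and WT 1 the lowest library, and both belong to series 22. The means were 23376 ± 3944 in KO and 22070 ± 3635 in WT (SD, n = 3 each), and the log2 difference was 0.11 (SE 0.18, 95% interval -0.32 to 0.54). The sign of that difference was not stable: it was -0.19 within series 24 and 0.41 within series 22, -0.03 without WT 1, and -0.11 after scaling to the spike-in RNAs, which put the median of all genes at -0.20, against 0.01 without it.

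Many genomic copies resemble Rn7sk, so its reads could be divided among rows. Among the other genes with any alignment to it, 11 matched at least 60% of its bases at 90% identity or more. The highest was Gm24447, identical over 72.8% of Rn7sk, with 158.2, 118.7 and 116.6 robust FPM in KO 1, KO 4 and KO 5, and 83.0, 137.5 and 131.7 robust FPM in WT 1, WT 2 and WT 4. It followed Rn7sk in being highest in KO 1 and lowest in WT 1. The 11 rows summed to 0.818% to 0.880% of the Rn7sk value in KO libraries and 0.666% to 0.865% in WT libraries. The total listed for such rows was thus small beside Rn7sk itself. These values cannot show how many reads matched several copies, or how such reads were counted.

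Terc (ENSMUSG00000064796, chr3:96414437-96414859, minus strand, GRCm38) was the least abundant of the detected members. It had 30.3, 23.6 and 22 robust FPM in KO 1, KO 4 and KO 5, and 15.2, 28.9 and 25.9 robust FPM in WT 1, WT 2 and WT 4. As with Rn7sk, KO 1 was highest and WT 1 lowest, here 1.99 times apart. The means were 25.3 ± 4.40 in KO and 23.3 ± 7.20 in WT (SD, n = 3 each), and the log2 difference was 0.17 (SE 0.26, 95% interval -0.43 to 0.77), the widest interval of the 5. It was -0.18 within series 24 and 0.52 within series 22, -0.07 without WT 1, and -0.05 after scaling to the spike-in RNAs.

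Gas5 (ENSMUSG00000053332, chr1:161034422-161038539, plus strand, GRCm38) had 293.7, 208.9 and 201.4 robust FPM in KO 1, KO 4 and KO 5, and 224.6, 258.8 and 228.5 robust FPM in WT 1, WT 2 and WT 4. KO 1 was again the highest, but WT 1 was not the lowest, a place taken by KO 5. The means were 235 ± 51.3 in KO and 237 ± 18.7 in WT (SD, n = 3 each), and the log2 difference was 0.06 (SE 0.13, 95% interval -0.25 to 0.38), with -0.16 within series 24, 0.28 within series 22 and -0.01 without WT 1. Between series, Gas5 averaged 213 ± 14 in series 24 and 259 ± 34.6 in series 22, a log2 difference of -0.30 with an unadjusted limma p of 0.0594 and an adjusted p of 0.584, and it was -0.08 without KO 1.

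In the comparison of series 24 with series 22, 0 of the 5 members were called by limma, against 0.141% of all tested genes (21 of 14944, 1 higher and 20 lower). At an unadjusted p below 0.05 stood 1 of the 5 members, Neat1, and 1317 of all genes. Values of the series overlapped in each of the 5 members, while they did not overlap in 20.5% of the tested genes. Malat1, Rn7sk and Terc had log2 differences of 0.11, -0.08 and -0.05, beside a median of 0.06 over all genes. Without WT 1 these were 0.13, -0.21 and -0.30, and that of Gas5 was -0.37, none of them called.

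**Figure D3:**
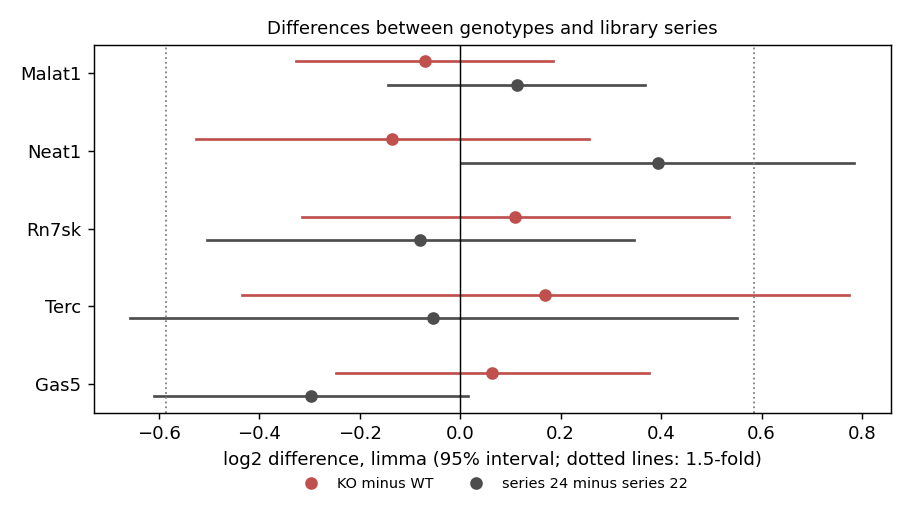
Log2 differences of the 5 detected RNAs with 95% intervals from limma, KO minus WT in red and series 24 minus series 22 in grey, with dotted lines at 1.5-fold. Of the 10 intervals only that of Neat1 between series leaves out 0, by a small margin, and its adjusted p is 0.561.

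The detected members fell into different patterns over the 6 libraries. Measured as the root mean square difference of centred log2 profiles, Rn7sk lay near Terc (0.15) and Gas5 (0.15), while Neat1 and Gas5 were farthest apart (0.38). The tested genes with profiles most like Rn7sk were Rnf113a1 (0.026) and Smim27 (0.030), and those most like Terc were Rplp1 (0.033), a protein of the ribosomal stalk, and Mrps28 (0.056), a mitochondrial ribosomal protein. Rplp1 measured 1380.0, 1125.7 and 1060.3 robust FPM in KO 1, KO 4 and KO 5, and 716.5, 1305.8 and 1179.6 robust FPM in WT 1, WT 2 and WT 4, the same order of libraries as Terc. The nearest to Gas5 were Gm16001 (0.023) and Rnu11 (0.033), the U11 RNA of the minor spliceosome, to Malat1 Mbtd1 (0.017) and Krit1 (0.018), and to Neat1 Phf21b (0.035) and Mlxip (0.064). Of 14939 genes compared over these 6 libraries, 1927 lay within 0.1 of Malat1 and 511 within 0.1 of Rn7sk, but 219 of Gas5, 43 of Terc and 34 of Neat1, so a close match is commonplace for a flat profile.

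**Figure D4:**
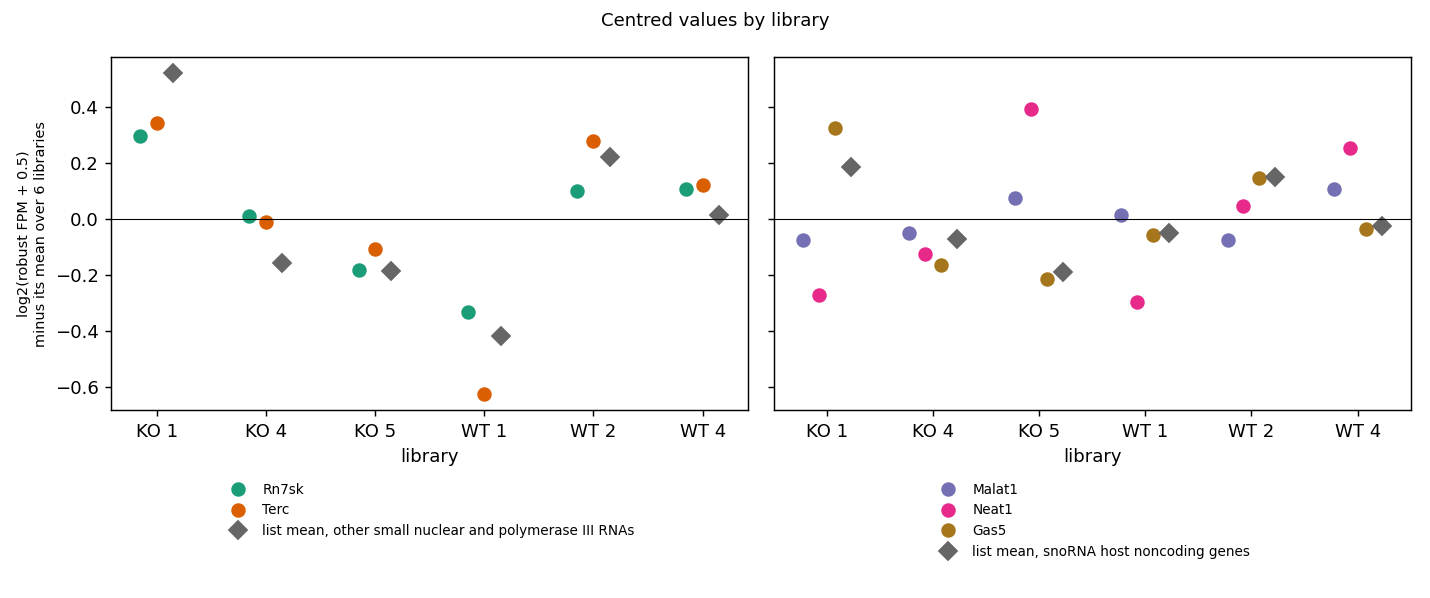
Centred log2(robust FPM + 0.5) of Rn7sk and Terc with the mean of other small RNAs (left), and of Malat1, Neat1 and Gas5 with the mean of other snoRNA host genes (right), by library, KO libraries left of WT libraries. Rn7sk, Terc and the small RNA mean are highest in KO 1 and lowest in WT 1, while Neat1 is highest in KO 5.

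Other small RNAs were mostly highest in KO 1, as were Rn7sk and Terc. Of the 30 rows on a list of small nuclear and RNA polymerase III RNAs, 12 were listed at 0 in all libraries and 11 could be tested. In limma 0 of the 11 were called between genotypes or series, with a median log2 difference of 0.21 between KO and WT, beside 0.01 over all genes. KO 1 was the highest library for 10 of the 11, and WT 1 the lowest for 5. The shares of all tested genes with these places were not counted, so neither can be called particular to small RNAs. Rn7s1, an RNA of the signal recognition particle, had 24, 16.4 and 17.1 robust FPM in KO 1, KO 4 and KO 5, and 7.3, 23.3 and 18.8 robust FPM in WT 1, WT 2 and WT 4. Its relative Rn7s2 did not have its minimum in WT 1, with 9.5 to 12.8 robust FPM in the KO libraries and 8.1 to 13.1 robust FPM in the WT libraries. Rnu12, the U12 RNA of the minor spliceosome, had the highest mean of the tested rows. It measured 33.9, 21.2 and 18.9 robust FPM in the KO libraries and 29.5, 30.1 and 23.1 robust FPM in the WT libraries. Rnu12 was thus not low in WT 1 either. With 12 rows of the list at 0, these values do not rank the RNAs by their abundance in cells.

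Protein partners of the members did not pass the test in either direction. Of the 9 tested genes of the 7SK particle and P-TEFb, 0 were called between genotypes, with a median log2 difference of 0.04. Mepce, which caps 7SK, had the smallest p of them, with 101 ± 7.06 robust FPM in KO and 91.9 ± 7.18 robust FPM in WT (SD, n = 3 each), and Aff4 and Ccnt2, of the elongation complexes, were the most abundant. Of 27 genes of the RNA polymerase III machinery, 0 were called, with a median of 0.01, and WT 1 was the lowest library for 16 of them. Gtf3a, a transcription factor for 5S RNA genes, measured 52.8 ± 2.01 robust FPM in KO and 43.6 ± 9.29 robust FPM in WT, and Bdp1 and Brf1, subunits of the initiation factor TFIIIB, were the most abundant of these. WT 1 was also lowest for 9 of 10 CD4 T cell markers and 8 of 14 paraspeckle proteins, but for 3 of 12 nuclear speckle proteins. The share of all tested genes lowest in WT 1 was not counted, so that place cannot be called particular to this machinery.

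For telomerase, 0 of 11 tested genes were called, with a median of 0.05. Dkc1 and Nop10, which bind the RNA of this particle, averaged 80.0 ± 6.47 and 61.6 ± 8.70 robust FPM in KO, against 78.1 ± 3.84 and 57.7 ± 11.1 robust FPM in WT. Wrap53, which brings telomerase to Cajal bodies, had the smallest p, with 9.17 ± 0.907 robust FPM in KO and 7.47 ± 0.907 robust FPM in WT. WT 1 was lowest for 5 of the 11, a count that likewise has no share over all genes beside it.

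Among 14 paraspeckle proteins 0 were called, with a median of -0.04, and among 12 nuclear speckle proteins 0, with a median of 0.01. Hnrnpk and Ewsr1 led the paraspeckle list in level, and Taf15, an RNA-binding protein related to Ewsr1, had 42.6 ± 3.09 robust FPM in KO and 47.0 ± 1.87 robust FPM in WT. Srrm2 and Son, core proteins of speckles, averaged 1096 ± 73.7 and 860.3 ± 55.6 robust FPM in KO, against 1104 ± 115 and 855 ± 91.3 robust FPM in WT. Pnn had the smallest p there, with 61.8 ± 6.36 robust FPM in KO and 70.6 ± 4.38 robust FPM in WT. Of 16 other long noncoding RNAs 0 were called, with a median of -0.02; the most abundant were Kcnq1ot1 and 1700020I14Rik, and Dleu2 had the smallest p, with 59.6 ± 14.7 robust FPM in KO and 60.6 ± 14.5 robust FPM in WT. Its log2 difference was -0.23 with the series term (unadjusted limma p of 0.0870, adjusted p of 1) and -0.03 without that term.

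Gas5 belongs to a class of snoRNA host genes, of which 14 others were tested and 0 called. Their median log2 difference was 0.07 between KO and WT, and -0.20 between series 24 and series 22, beside -0.30 for Gas5 and 0.06 for all genes. Snhg1, the most abundant of them, had 64.3, 64.5 and 75.5 robust FPM in KO 4, KO 5 and WT 4 of series 24, and 124.8, 93.0 and 104.6 robust FPM in KO 1, WT 1 and WT 2 of series 22. Its series did not overlap, as was so for 20.5% of all tested genes, and its log2 difference of -0.67 had an adjusted limma p of 0.247. Snhg5 had the next highest level. Snhg20 went the other way, with 28.5, 24.1 and 26.1 robust FPM in the same libraries of series 24 and 17.5, 9.8 and 15.4 robust FPM in those of series 22, a log2 difference of 0.81 with an adjusted limma p of 0.325. Of 10 tested factors of nonsense-mediated decay, 0 were called, with a median of 0.00, and Smg1, a kinase of that pathway, was the highest. Upf2, which links the core factors of the pathway, had the smallest p, with 85.6 ± 1.43 robust FPM in KO and 95.9 ± 8.01 robust FPM in WT.

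The RNA subunits of RNase MRP and RNase P were listed at or close to 0. Rmrp has a row of 281 bases (ENSMUSG00000115420, chr4:43492783-43493063) and a row of 271 bases (ENSMUSG00000088088, chr4:43492788-43493058), both on the minus strand, and both were listed at 0 in all 6 libraries. The shorter lies wholly inside the longer and covers its bases 6 to 276, in capitals here to show the overlap.
Rmrp: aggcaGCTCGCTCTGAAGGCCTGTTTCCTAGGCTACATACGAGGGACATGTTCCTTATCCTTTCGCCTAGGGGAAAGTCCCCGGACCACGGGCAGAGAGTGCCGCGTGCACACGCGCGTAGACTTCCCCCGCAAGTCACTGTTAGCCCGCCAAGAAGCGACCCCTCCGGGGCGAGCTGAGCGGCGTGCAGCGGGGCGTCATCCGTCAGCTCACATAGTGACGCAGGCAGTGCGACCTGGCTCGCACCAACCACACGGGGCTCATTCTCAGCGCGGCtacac
Rpph1 (ENSMUSG00000092837, chr14:50807449-50807767, minus strand) was listed at 0 in KO 1, KO 4, KO 5, WT 1 and WT 2 and at 0.1 robust FPM in WT 4. Of its 319 bases, 233 lie in an exon of Ccnb1ip1 on the same strand, and the 86 bases outside it are at the ends, 35 at the 5′ end and 51 at the 3′ end. Bases 1 to 300 (chr14:50807468-50807767) are given with those outside the Ccnb1ip1 exon in capitals.
Rpph1: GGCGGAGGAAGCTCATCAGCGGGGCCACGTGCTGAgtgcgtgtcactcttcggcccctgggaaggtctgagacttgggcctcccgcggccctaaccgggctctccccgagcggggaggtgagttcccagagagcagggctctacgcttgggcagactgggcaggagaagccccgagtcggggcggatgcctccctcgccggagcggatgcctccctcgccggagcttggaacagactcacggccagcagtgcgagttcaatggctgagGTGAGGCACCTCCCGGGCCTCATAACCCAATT
The overlapping row was low as well, Ccnb1ip1 having 0.0 to 0.2 robust FPM in KO libraries and 0.0 to 1.1 robust FPM in WT libraries.

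The overlap of a row with other rows was set beside its values over the whole table. The shorter Rmrp row lies wholly inside another row, while the longer Rmrp row and Rpph1 are partly covered. Of 234 rows of small RNA classes (small nuclear, nucleolar and Cajal body RNAs, ribozymes, ribosomal RNAs and miscellaneous RNAs) that lie wholly inside an exon of another row on the same strand, 234 were at 0 in all 6 libraries. Of 119 rows partly inside one, 51.3% were at 0, and of 3525 rows with no such overlap, 36.9%. In the range of 200 to 500 bases, which holds Rmrp and Rpph1, the counts were 21 of 21, 10 of 28 and 107 of 391. The 10 snoRNA rows within annotated exons of Gas5, 1 row within Malat1 (Gm27694) and 3 within Neat1 (Gm27533, Gm27505 and Gm28006) were among those at 0. Rn7sk and Terc overlap no other annotated row. The part of such overlaps in the values of Rmrp and Rpph1 was not tested, and a listed 0 does not show that the RNA was absent. Of 10 tested protein subunits of RNase P and RNase MRP, 0 were called between genotypes, with a median of 0.07. Pop5 and Rpp14 were the highest, at 36.3 ± 4.38 and 24.2 ± 1.73 robust FPM in KO, against 34.8 ± 5.46 and 22.8 ± 4.34 robust FPM in WT, and Rpp40 had the smallest p, with 8.97 ± 1.17 robust FPM in KO and 9.67 ± 0.473 robust FPM in WT.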

How the data were processed

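Per the submitters' processing notes, STAR, featureCounts, DESeq2 and DESeq were used on GRCm38.p3, with no role or version; the strand setting and the handling of fragments that overlap several genes are not given in the sources used here. By default featureCounts assigns no such fragment to a gene. The deposited robust FPM values, treated as RPM and not as counts, were scaled by the authors with robust size factors and rounded to 1 decimal. The table held 92 ERCC spike-in rows, left out of tests and of the gene sum, and 6 columns matching no sample, which were not used. No depth is stated, and the rounding prevents a return to whole reads.

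Genes with a mean of at least 1 (14944) were fitted as log2(value + 0.5), a scale that understates changes of low genes, with limma 3.58.1 in R 4.3.3 (mean-variance trend, terms for genotype and library series, two-sided, Benjamini-Hochberg over all of them). The interaction of genotype and series was a further fit. P-values measure the spread between these libraries, which the series' design text calls biological replicates. Shares were taken of the sum of gene rows. Identifiers were matched without version to GENCODE M21, whose exons gave lengths and overlaps; the release used by the authors is not stated there. Alignments to all transcripts used blastn 2.17.0, and figures matplotlib 3.10.9. The procedure was tested on simulated data with noise drawn separately for each value. Variation shared by the genes of a library and a difference between series were not simulated. That test therefore does not cover these traits of the table.

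Named were the members, 2 genes of nearest profile to each, and, per list, the 2 genes of highest mean and the one of smallest p. Of the genes so named, 1 is not reported here. Members and lists were chosen with earlier results of these data known. The alternatives changed pseudocount, filter, scaling, variance model, model terms and libraries.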

Additional observations from a re-analysis of the deposited data

Results flagged for a closer look

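For Rn7sk, Terc and Gas5 the genotype difference had opposite signs in the library series in every library pair: both KO libraries of series 24 were below WT 4, and KO 1 of series 22 was above WT 1 and WT 2. The difference in series 24 minus that in series 22 was -0.61 (log2, SE 0.36) for Rn7sk, -0.70 (SE 0.51) for Terc and -0.44 (SE 0.20) for Gas5. The test of this difference did not call them (limma interaction term, adjusted p = 0.678 for each), nor any of 14944 genes, with 369 at an unadjusted p below 0.05. The median over all genes was -0.21, so that the table as a whole was shifted the same way. The share of all tested genes with such opposite signs was not counted, so the pattern cannot be called particular to these members. The sizes depended on the libraries and the scaling. Without WT 1, the library that stood apart, they were -0.39 for Rn7sk, -0.25 for Terc and -0.34 for Gas5, and with any library left out that the fit can spare they ran from -0.82 to -0.39, from -1.15 to -0.25 and from -0.54 to -0.34 in that order of genes. After scaling to the spike-in RNAs they were -1.27, -1.35 and -1.10, beside a median of -0.83 over all genes. KO 1 in series 22 and WT 4 in series 24 are each the lone library of their genotype there.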

How the results depend on the processing

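No member was called between genotypes or series under any alternative run. Genes called between KO and WT stayed at 0, also with each library left out, except with the replicate block, where 5 were called (1 higher, 4 lower) and Rn7sk stood at 0.27 and Terc at 0.42. Replicate numbers 1 and 4 occur in both groups, and same-numbered libraries also share a series. Their deviations from the group means correlated at -0.16 and -0.41 across genes. Because the groups differ in their make-up by series, these correlations cannot decide whether the numbers mark pairs. Signs of KO minus WT turned as follows. Within series 24 alone Rn7sk was -0.19, Terc -0.18, Gas5 -0.16, Mepce -0.018 and Gtf3a -0.014. With a library left out, Rn7sk ran from -0.19 to 0.41, Terc from -0.18 to 0.52, Gas5 from -0.16 to 0.28, Mepce from -0.018 to 0.28 and Gtf3a from -0.014 to 0.42. Scaling to the spike-in RNAs gave Rn7sk -0.11, Terc -0.045, Gas5 -0.15, Mepce -0.086, Gtf3a -0.015 and Wrap53 -0.00042, and no series term gave Gas5 -0.035. Between series, Rn7sk ran from -0.38 to 0.22 and Terc from -0.40 to 0.30 with a library left out, and Terc was 0.0071 scaled to the spike-in RNAs and 0.0033 without the genotype term. The interaction of Malat1 was 0.015 scaled to the gene sum and ran from -0.11 to 0.011 with a library left out, and that of Neat1 was -0.63 scaled to the spike-in RNAs and ran from -0.23 to 0.29. The 21 genes called between series became 54 with a mean of at least 5, 13 scaled to the spike-in RNAs, 0 with no trend, 37 with robust variances, 87 without the genotype term, and 0 to 110 with a library left out. The interaction called 8 genes after scaling to the spike-in RNAs, an alternative added after the data had been seen, and 0 with a library left out; it could not be fitted without KO 1 or without WT 4. The cause of these shifts was not tested. The shares of the gene sum, as means over the 6 libraries, moved by less than their SD under each other sum. Shares in WT 1 alone moved by more when the 5 predicted genes were left out. There Malat1 went from 1.45% to 1.80%, the highest of the 6 libraries, Rn7sk from 1.87% to 2.32% and the summed share from 3.38% to 4.19%. Unknown depth limits the reading of Terc and of rows near 0.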
